A study of Mus musculus with 106 samples.

Results

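The expression of 10 genes that set how much glucose a cell takes up and how far it runs glycolysis was followed in 11 mouse tissues at 3 ambient temperatures. The genes were chosen by symbol, with earlier results of these data known. They were the glucose transporters Slc2a1 (GLUT1) and Slc2a4 (GLUT4), the hexokinases Hk1 and Hk2, the bifunctional enzyme Pfkfb3, the pyruvate kinase gene Pkm, the lactate dehydrogenase subunits Ldha and Ldhb, and the pyruvate dehydrogenase kinases Pdk2 and Pdk4. All 10 were listed in each of the 4 count tables of the series, which together hold 25808 gene symbols. In brown fat at 10 °C the transcripts of Hk1, Hk2, Pkm and Ldha rose while that of Pfkfb3 fell. In inguinal subcutaneous fat Hk2, Pkm, Ldhb and Pdk4 rose, Hk2 and Pkm without an adjusted p below 0.05. At 34 °C Hk2, Pfkfb3, Ldha and Pdk4 fell in brown fat. No member passed the threshold in brain at either temperature, nor in spleen, bone marrow, hypothalamus or spinal cord at 10 °C. That threshold was an unadjusted p of at most 0.05 by edgeR with a fold change above 1.5. In bone marrow 5 members had an adjusted p below 0.05 with changes under that fold. The share of all genes called is given with each comparison.

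Glucose enters most cells through GLUT1, and insulin moves GLUT4 to the surface of muscle and fat cells. Hexokinases phosphorylate it, Pfkfb3 makes the fructose 2,6-bisphosphate that activates phosphofructokinase, and pyruvate kinase forms pyruvate. Lactate dehydrogenase interconverts pyruvate and lactate, with Ldha encoding the subunit dominant in skeletal muscle and Ldhb the one dominant in heart, and the Pdk kinases phosphorylate and inhibit the pyruvate dehydrogenase complex, which keeps pyruvate from the mitochondrial acetyl-CoA pool. Brown adipocytes take up glucose in the cold and burn it, together with fatty acids, for heat.

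All samples came from male wild-type C57BL/6J mice, with no transgene. Mice were kept for 2 weeks at 10 °C after a stepwise lowering of the temperature, or for 4 weeks at 34 °C, and each set had its own mice at 22 °C, and the labels give an age of 11 or 12 weeks. The 10 °C experiment covered interscapular brown (iBAT), inguinal subcutaneous (ingSAT) and perigonadal visceral (pgVAT) adipose tissue, quadriceps, liver, ileum, spleen, bone marrow, brain, hypothalamus and spinal cord. The samples of the 34 °C experiment in this series covered iBAT, quadriceps, liver, ileum and brain. The study also profiled ingSAT and pgVAT at 34 °C, but the series holds no samples of them at that temperature. Groups held 3 libraries, except 6 in bone marrow and 5 in spinal cord, and most libraries pool the RNA of a pair of mice, so that the spread between libraries understates that between animals. In bulk tissue, fewer cells of a type and less RNA per cell cannot be told apart.

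Totals ran from 4262403 to 62880248 counts per library over the 106 libraries, and the shallowest was a pgVAT library at 22 °C (replicate 3). One brain library at 22 °C (replicate 2) summed to 91720.0 CPM, a depth-scaled count, over 8 hepatocyte markers, where the other brain libraries of that experiment summed to between 735 and 1103 CPM, and it was left out of the brain comparison, which then had 2 libraries at 22 °C. In pgVAT, 7 epididymis markers summed to 17362, 2.88 and 22683 CPM in the 10 °C libraries and to 2579, 881 and 657 CPM at 22 °C. Skeletal muscle markers were present in most iBAT libraries, with values given beside those results. Levels are CPM after TMM scaling within each comparison, and comparisons between genes use CPM per kilobase of annotated exon. A member was called when the edgeR quasi-likelihood test gave an unadjusted p of at most 0.05 with a fold change above 1.5, and the Benjamini-Hochberg adjusted p over all genes tested is given beside it. SE is the standard error of the log2 fold change.

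On the GRCm38 assembly Hk1 lies on chr10:62268855-62379908, Hk2 on chr6:82725025-82774454, Pkm on chr9:59656368-59679375 and Ldha on chr7:46841475-46855627, while Pfkfb3 lies on chr2:11471433-11554077 and Pdk4 on chr6:5483351-5496309. Reads were counted per gene, so the M1 and M2 splice forms of Pkm could not be told apart. Hk1 shares exon bases with 1 antisense gene, Hk1os, Slc2a1 with 1 antisense gene, Gm12868, and Pkm with 1 gene on its own strand, Gm49759. Of the members 4 rose together in iBAT at 10 °C, and the 250 bases before their RefSeq starts (GRCm38.p6) are shown with each ACGTG, read on either strand, in capitals. This 5-letter sequence is the core bound by hypoxia-inducible factors and lies inside the E-box CACGTG, which holds it on both strands and so counts as 2. RefSeq promoters were at hand for 9 of the 10 members, all but Slc2a4, and where a gene had 2 windows the one with more matches is shown, or the more upstream one for Hk1, so the choice favours matches.
Ldha, chr7:46845554-46845803, plus strand: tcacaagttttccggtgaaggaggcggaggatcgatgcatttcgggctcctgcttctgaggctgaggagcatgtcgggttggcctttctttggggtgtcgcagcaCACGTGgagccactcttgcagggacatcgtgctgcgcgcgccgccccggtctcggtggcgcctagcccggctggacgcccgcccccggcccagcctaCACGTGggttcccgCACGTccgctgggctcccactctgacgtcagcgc
Hk2, chr6:82774455-82774704, minus strand: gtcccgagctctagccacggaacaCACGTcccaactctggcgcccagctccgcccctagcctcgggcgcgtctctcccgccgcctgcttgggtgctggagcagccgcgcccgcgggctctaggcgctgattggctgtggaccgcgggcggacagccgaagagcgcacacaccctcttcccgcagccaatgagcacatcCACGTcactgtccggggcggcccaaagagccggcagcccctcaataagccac
Pkm, chr9:59656977-59657226, plus strand: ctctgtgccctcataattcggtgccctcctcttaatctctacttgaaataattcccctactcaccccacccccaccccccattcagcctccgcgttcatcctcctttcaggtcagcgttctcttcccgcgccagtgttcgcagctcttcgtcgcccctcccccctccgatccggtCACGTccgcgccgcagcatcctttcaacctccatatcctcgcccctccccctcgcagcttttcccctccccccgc
Hk1, chr10:62379909-62380158, minus strand: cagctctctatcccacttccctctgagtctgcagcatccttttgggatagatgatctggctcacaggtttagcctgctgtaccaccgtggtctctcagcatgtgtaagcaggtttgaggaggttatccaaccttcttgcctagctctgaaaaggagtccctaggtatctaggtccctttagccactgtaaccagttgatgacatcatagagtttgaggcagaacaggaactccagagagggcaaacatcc
Pfkfb3, which fell in the same libraries, chr2:11502091-11502340, minus strand: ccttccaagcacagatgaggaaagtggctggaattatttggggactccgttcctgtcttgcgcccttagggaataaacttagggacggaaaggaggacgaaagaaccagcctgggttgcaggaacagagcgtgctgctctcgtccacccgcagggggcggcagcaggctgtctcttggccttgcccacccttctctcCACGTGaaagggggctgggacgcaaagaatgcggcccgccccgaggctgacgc
The Ldha window held 5 matches, of which 4 lie in its 2 E-boxes, the Hk2 window 2, the Pkm window 1 and the Hk1 window 0, and that of Pfkfb3 held 2. The second windows of Ldha, Pkm and Hk1 held 0 and that of Pfkfb3 held 1. Of the 32851 RefSeq windows of this length, 16.6% held ACGTG on either strand and 6.02% held CACGTG. Among the members that rose, Hk1 held the sequence in neither window, and Pfkfb3, which fell, held it in both.

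Among the 8 tissues of the largest table, which lacks quadriceps, the glucose transporters and the hexokinases each had one member highest in iBAT at 22 °C. The other member of each was highest in the nervous system. Within the 8 tissues of the largest table Slc2a4, the transporter of insulin-sensitive tissues, was highest in iBAT at 513 ± 38.9 CPM (SD, n = 3), followed by ingSAT at 273 ± 90.4 CPM (SD, n = 3) and pgVAT at 179 ± 30.6 CPM (SD, n = 3), whose libraries overlapped each other. In brain, hypothalamus and liver its means were between 2.39 and 2.95 CPM with overlapping libraries. Slc2a1 ran from 81.6 ± 5.88 CPM (SD, n = 3) in hypothalamus and 55.9 ± 4.33 CPM (SD, n = 2) in brain down to 6.14 ± 0.675 CPM (SD, n = 3) in iBAT, the lowest of the 8, with no overlap between iBAT and its neighbour pgVAT.
Hk1, the hexokinase of most tissues and of neurons, stood at 440.2 ± 24.2 CPM (SD, n = 2) in brain and 330.3 ± 16.99 CPM (SD, n = 3) in hypothalamus, and was between 30.6 and 42.1 CPM in the 3 fat depots and ileum, where all neighbours in the order overlapped. Hk2, the insulin-responsive form, was highest in iBAT at 441 ± 39.6 CPM (SD, n = 3). The next 3 tissues, pgVAT, ileum and ingSAT, had means of 166, 160.0 and 156 CPM and overlapped each other. Per kilobase Hk2 exceeded Hk1 in iBAT (73.9 against 3.77 CPM per kb), whereas in brain Hk1 exceeded Hk2 (51.6 against 1.05 CPM per kb).
Pfkfb3 was highest in the fat depots in this table, which lacks quadriceps: iBAT, pgVAT and ingSAT had 900.4 ± 287 CPM (SD, n = 3), 849.9 ± 278 CPM (SD, n = 3) and 681 ± 38.0 CPM (SD, n = 3), with overlap between neighbours, and spleen came next at 77.6 ± 5.43 CPM (SD, n = 3), apart from all 3. Pkm was at 1069 ± 10.5 CPM (SD, n = 2) in brain and 1034 ± 105 CPM (SD, n = 3) in iBAT, which overlapped, and lowest in liver at 15.3 ± 9.73 CPM (SD, n = 3), the organ that uses the Pklr gene in its place.

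**Figure D1:**
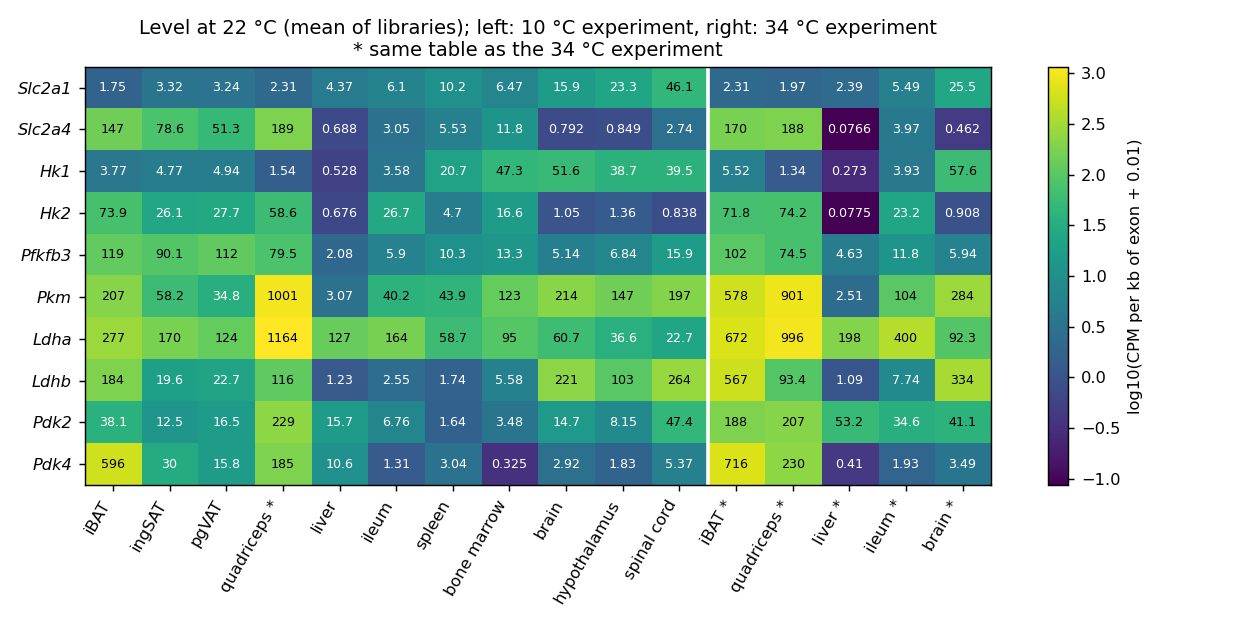
Mean level of the 10 members at 22 °C (colour, log10 of CPM per kilobase of exon plus 0.01; the printed value is CPM per kilobase) in the 22 °C libraries of each comparison, those of the 10 °C experiment to the left of the white line and those of the 34 °C experiment to the right. Pdk4 was at 596 and 716 CPM per kb in iBAT of the 2 experiments and at 0.325 in bone marrow, and Pkm and Ldha were highest in quadriceps.

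Ldha was highest in iBAT at 917 ± 98.4 CPM (SD, n = 3) and lowest in hypothalamus at 121 ± 3.93 CPM (SD, n = 3). Ldhb was highest in brain at 346 ± 13.6 CPM (SD, n = 2), with iBAT next at 289 ± 35.8 CPM (SD, n = 3) and no overlap between them, and stood at 1.92 ± 1.98 CPM (SD, n = 3) in liver. Pdk2 was highest in iBAT at 120.4 ± 30.4 CPM (SD, n = 3) and lowest in spleen at 5.20 ± 0.499 CPM (SD, n = 3). Pdk4 had the widest range of the members over these tissues, from 2094 ± 278 CPM (SD, n = 3) in iBAT to 4.61 ± 1.06 CPM (SD, n = 3) in ileum. In quadriceps at 22 °C, from another table, Pkm stood at 5007 ± 1468 CPM (SD, n = 3) and Ldha at 3853 ± 1049 CPM (SD, n = 3), and in spinal cord Slc2a1 stood at 162 ± 12.9 CPM (SD, n = 5). Quadriceps shares a table with iBAT of the 34 °C experiment. There the quadriceps controls of the 10 °C and 34 °C comparisons and iBAT at 22 °C had mean Slc2a4 of 656, 654 and 592 CPM. In that order Hk2 was at 350, 443 and 429 CPM and Pfkfb3 at 601, 563 and 768 CPM (n = 3 in each). For Slc2a4 and Hk2 the iBAT libraries overlapped those of both quadriceps sets. Levels of different tables are not on one scale. At 22 °C the mean of Pdk2 was between 2.79 and 5.12 times higher in the 34 °C experiment than in the 10 °C experiment in the 4 tissues that share both tables (iBAT, liver, ileum and brain), and that of Ldha between 1.52 and 2.44 times. Library kit, sequencing site and supplier of mice differ between those tables and cannot be told apart.

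For each member, the gene with the most similar pattern was sought by Pearson's correlation of mean log2(CPM + 1) over the 8 tissues of the largest table, among 17172 other genes with a mean of at least 1 CPM in some tissue. The highest was Rnf34 for Hk1 (r = 0.998), followed by Yif1a for Ldha (0.996), Tnfrsf10b for Hk2 (0.993), C330007P06Rik for Pfkfb3 (0.990) and Oxld1 for Pdk4 (0.989). For Ldhb it was Rgs7 (0.988), for Slc2a4 Abhd16b (0.988), for Slc2a1 Trappc11 (0.984), for Pkm Mrps25 (0.983) and for Pdk2 Prdx5 (0.965). With 8 points many genes correlate highly: 790 genes had r above 0.9 with Hk1 and 15 with Pdk2.

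Over the 16 comparisons 159 of 160 pairs of member and comparison were tested, since Hk2 was under the filter on low counts in liver in the 34 °C experiment. Of these 19 were called, 13 at 10 °C and 6 at 34 °C, and 11 of the 19 also had an adjusted p below 0.05, all in iBAT and ingSAT. The share of all genes called ran from 0.193% to 19.4% over the comparisons and is given with each. The 11 were 5 in iBAT at 10 °C, 2 in ingSAT at 10 °C and 4 in iBAT at 34 °C. Among all genes 1117 of 12791, 926 of 13982 and 1928 of 12331 were called with an adjusted p below 0.05 there. Hk2 and Pdk4 were each called in 4 comparisons, Pfkfb3 in 3, Pkm and Ldha in 2, and Slc2a4, Hk1, Ldhb and Pdk2 in 1. Slc2a1 was called in none of the 16, and its log2 fold changes ran from -0.53 to 0.30.

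**Figure D2:**
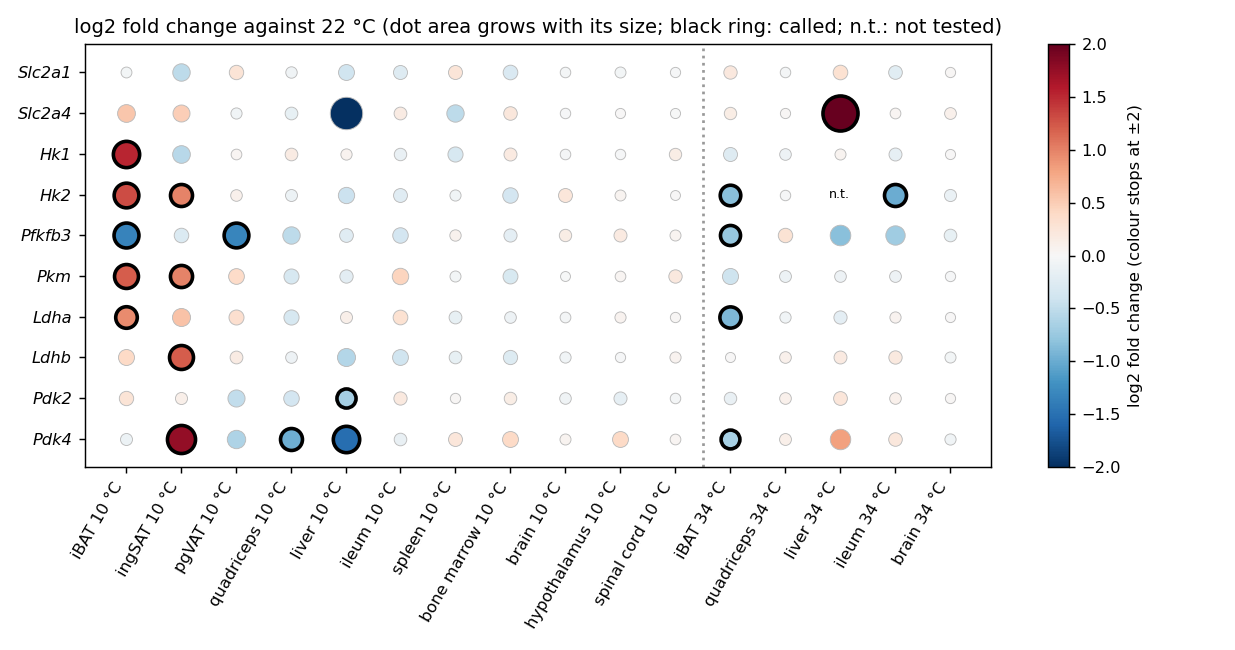
Log2 fold change of each member against its own 22 °C libraries (colour, with dot area growing with the size; columns are the 16 comparisons). Black rings mark the 19 called changes, and Hk2 in liver at 34 °C was not tested (n.t.). The large open dot for Slc2a4 in liver at 10 °C is a log2 fold change of -2.44 that was not called.

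In iBAT at 10 °C the members that rose belong to the hexokinase, pyruvate kinase and lactate dehydrogenase steps. Of the 10 members 5 were called, 4 higher and 1 lower, where 13.2% of all 12791 genes tested were called. The median of the 10 log2 fold changes was 0.48 and that of all genes -0.02.
Hk1 was at 24.8, 32.5 and 39.2 CPM at 22 °C and 88.9, 95.003 and 92.9 CPM at 10 °C. All 3 cold libraries lay above all 3 controls, a rise of 2.86-fold (log2 fold change 1.52, SE 0.16, adjusted p = 0.000959). Hk2 was at 412, 425 and 486 CPM at 22 °C and 1039, 1138 and 1099.9 CPM at 10 °C. Its groups were as far apart, with a 2.48-fold rise (log2 fold change 1.31, SE 0.14, adjusted p = 0.000956).
Pkm, the last ATP-yielding step of glycolysis, was at 987, 1155 and 962 CPM at 22 °C and 1916, 2974 and 2301 CPM at 10 °C. The groups did not overlap and Pkm rose 2.32-fold (log2 fold change 1.21, SE 0.20, adjusted p = 0.00660). Ldha was at 990.2, 955 and 805 CPM at 22 °C and 1596, 1955 and 1722 CPM at 10 °C. The lowest cold library was above the highest control, for a 1.92-fold rise (log2 fold change 0.94, SE 0.16, adjusted p = 0.00782).
Pfkfb3 moved against them. It was at 786, 688 and 1227 CPM at 22 °C and 247, 434 and 388 CPM at 10 °C, and every cold library lay below every control, a fall of 2.53-fold (log2 fold change -1.34, SE 0.27, adjusted p = 0.0147). Of its 3 controls replicate 3 was the highest, and the change without it was -1.05 on the log2 scale.
Slc2a4 was at 507, 554 and 477 CPM at 22 °C and 689, 858 and 722 CPM at 10 °C. The groups did not overlap and the adjusted p was below 0.05, but the fold of 1.48 stayed under the limit (log2 fold change 0.56, SE 0.14, adjusted p = 0.0365). Ldhb was also without overlap, at 263, 274 and 330.2 CPM at 22 °C and 347, 418 and 385 CPM at 10 °C, with a change under the fold limit (log2 fold change 0.41, SE 0.14, adjusted p = 0.0944). Pdk4 was at 1810.1, 2107 and 2366 CPM at 22 °C and 1188, 2858 and 1739.6 CPM at 10 °C. The cold libraries of Pdk4 spanned the controls on both sides, and the interval of its log2 change, -0.69 to 0.45 (approximate 95% interval from the SE), does not show that it was unchanged. Slc2a1 had a log2 change of -0.05 and Pdk2 of 0.28, both with overlapping groups.
Markers of brown adipocytes summed to between 8592 and 13938 CPM at 22 °C and between 14706 and 18587 CPM at 10 °C over 8 genes, of which 3 rose and 2 fell. Skeletal muscle markers moved the other way, between 16671 and 22624 CPM at 22 °C and between 5649.7 and 12873 CPM at 10 °C, with 10 of the 12 lower, none higher and none at 0. Hepatocyte markers summed to between 63.8 and 112 CPM at 22 °C and between 1.33 and 1.97 CPM at 10 °C, with 6 of 6 tested lower, and smooth muscle markers to between 390.0 and 443 CPM at 22 °C and between 193 and 303 CPM at 10 °C, with 2 of 5 lower. Red cell precursor markers summed to between 370.0 and 571 CPM at 22 °C and between 623 and 993 CPM at 10 °C, with 2 of 4 higher, and epididymis markers to between 0.417 and 0.615 CPM at 22 °C and between 3.67 and 33.7 CPM at 10 °C, with 3 of 3 higher. Their part in the results was not tested.

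**Figure D3:**
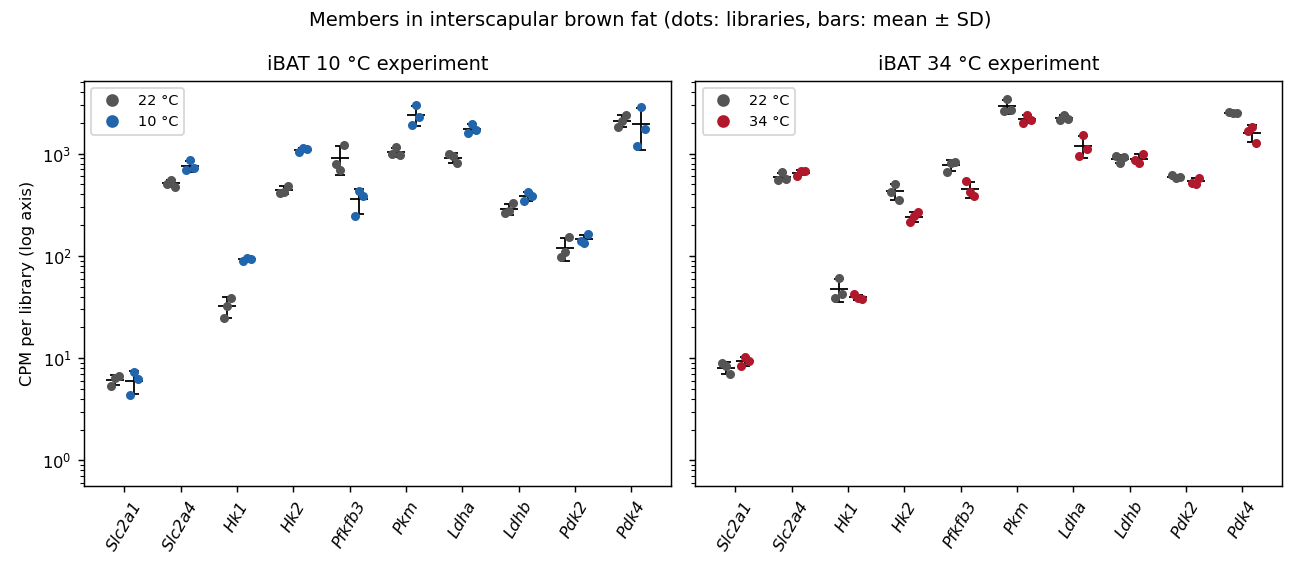
CPM of the 10 members per library in iBAT (logarithmic axis), left in the 10 °C and right in the 34 °C experiment, with dots for libraries and bars for mean ± SD. Hk1 and Hk2 at 10 °C lie above their controls, Pfkfb3 lies below its controls at both temperatures, and Ldha is higher at 10 °C and lower at 34 °C.

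In the same tissue at 34 °C, against its own controls, 4 of the 10 members were called, all lower, where 19.4% of 12331 genes were called. The median log2 fold change of the members was -0.33 and that of all genes 0.02.
Ldha was at 2114, 2379 and 2181.97 CPM at 22 °C and 948, 1508 and 1115 CPM at 34 °C. No warm library reached the controls, a fall of 1.87-fold (log2 fold change -0.90, SE 0.17, adjusted p = 0.0104). Hk2 was at 422, 509.5 and 355 CPM at 22 °C and 213, 244 and 266 CPM at 34 °C, again without overlap and 1.78-fold lower (log2 fold change -0.83, SE 0.15, adjusted p = 0.00898).
Pfkfb3 was at 665, 809.8 and 829.03 CPM at 22 °C and 535, 418 and 388 CPM at 34 °C. It was lower in all 3 warm libraries, by 1.72-fold (log2 fold change -0.78, SE 0.15, adjusted p = 0.0106), so that it was below its own controls at both temperatures. Pdk4 was at 2578, 2491 and 2476 CPM at 22 °C and 1682, 1835 and 1268 CPM at 34 °C. Its controls were nearly equal and all above the warm libraries, with a fold of 1.58 (log2 fold change -0.66, SE 0.15, adjusted p = 0.0166). Without 34 °C replicate 3, Pdk4 changed by -0.53 on the log2 scale and passed the fold limit no more.
Pkm was also without overlap, at 2625, 3386 and 2664 CPM at 22 °C and 1988, 2386 and 2145 CPM at 34 °C, with a change under the fold limit (log2 fold change -0.41, SE 0.14, adjusted p = 0.0583). Hk1, which was higher at 10 °C, was at 38.4, 60.8 and 42.0 CPM at 22 °C and 42.1, 38.8 and 37.6 CPM at 34 °C. Its groups overlapped, and the log2 change of -0.25 had an interval of -0.58 to 0.08. Slc2a4, Slc2a1, Ldhb and Pdk2 had log2 changes of 0.14, 0.21, 0.01 and -0.15, none called.
With scaling by library size alone the median of all genes moved by 0.27 on the log2 scale and 1 member, Ldha, was called. Brown adipocyte markers summed to between 11652 and 15347 CPM at 22 °C and between 6437 and 7803 CPM at 34 °C, with 4 of 8 lower. Macrophage markers summed to between 101 and 165 CPM at 22 °C and between 209 and 347 CPM at 34 °C and blood vessel markers to between 565 and 735 CPM at 22 °C and between 754 and 1027 CPM at 34 °C, with 2 of 4 higher in each list. Skeletal muscle markers were near 0 in 2 of the 3 controls (4.41 and 11.1 CPM) and at 7160 CPM in the third, while the warm libraries summed to 5804, 1569.6 and 1702 CPM. Without that control, Ldha changed by -0.85, Hk2 by -0.69, Pfkfb3 by -0.74 and Pdk4 by -0.66 on the log2 scale. The 2 controls then left had less of the muscle markers than every warm library, so muscle content and temperature cannot be told apart. The part of the marker lists was not tested. The 10 °C and 34 °C experiments share no control library, and a difference between their changes was not tested.

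In ingSAT at 10 °C 4 members were called, all higher, where 16.3% of 13982 genes were called. The median of the members was 0.54 and that of all genes -0.01.
Pdk4 was at 123, 88.8 and 105 CPM at 22 °C and 302, 391 and 380.2 CPM at 10 °C. The cold libraries were all above the controls and Pdk4 rose 3.39-fold (log2 fold change 1.76, SE 0.17, adjusted p = 0.00527), the largest rise of a member in this depot. Ldhb was at 30.5, 34.4 and 27.2 CPM at 22 °C and 74.2, 70.2 and 69.9 CPM at 10 °C. Its cold libraries were close to each other and 2.33-fold higher (log2 fold change 1.22, SE 0.12, adjusted p = 0.00548).
Pkm was at 349, 349.8 and 175 CPM at 22 °C and 639.7, 585 and 522 CPM at 10 °C. The groups did not overlap, but 22 °C replicate 3 was the lowest control (log2 fold change 0.9997, SE 0.28, adjusted p = 0.0720). Hk2 was at 159.8, 197 and 110.0 CPM at 22 °C and 366, 263 and 297 CPM at 10 °C, with no overlap and again the lowest control in replicate 3 (log2 fold change 0.99, SE 0.24, adjusted p = 0.0525). The adjusted p of these last 2 genes missed 0.05, as that of the next did.
Ldha was at 627, 616 and 445 CPM at 22 °C and 992, 787 and 753 CPM at 10 °C, higher in all cold libraries, with a change close to the limit but not called (log2 fold change 0.58, SE 0.20, adjusted p = 0.113). Slc2a4 was at 298, 349 and 173 CPM at 22 °C and 498, 295 and 359 CPM at 10 °C, with overlap, and Pfkfb3 changed by -0.29 with an interval of -0.61 to 0.02. Hk1 and Slc2a1 were lower on average, by -0.55 and -0.53 on the log2 scale, with overlap for both and adjusted p = 0.163 and 0.229 by edgeR.
Brown adipocyte markers summed to between 186 and 276 CPM at 22 °C and between 2486 and 3132 CPM at 10 °C, with 8 of 8 higher. Skeletal muscle markers were present in all 6 libraries, between 2619 and 6877 CPM at 22 °C and between 211 and 4017 CPM at 10 °C, with 1 of 12 lower. Macrophage markers summed to between 1104 and 1897 CPM at 22 °C and between 941 and 1142 CPM at 10 °C, with 2 of 5 lower. Their part was not tested.

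In pgVAT at 10 °C 1 member was called, where 7.94% of 14856 genes were called. Pfkfb3 was at 778, 615 and 1157 CPM at 22 °C and 243, 565 and 217 CPM at 10 °C. Each cold library was below each control (log2 fold change -1.31, SE 0.50, adjusted p = 0.593). The call was lost without replicate 1 or 3 of either temperature (log2 changes from -1.37 to -1.02). The 2 lowest cold libraries, replicates 1 and 3, were those with the epididymis markers. They also had the lowest sums of the 8 adipocyte markers. These were 19253.5, 49723.9 and 15696.4 CPM at 10 °C and 34268.5, 46856.2 and 30648.4 CPM at 22 °C, with 1 of 8 lower. The part of both lists was not tested. The other 9 members had log2 changes between -0.62 for Pdk4 and 0.38 for Pkm. Hk2 was at 149, 133 and 214 CPM at 22 °C and 144, 178 and 208 CPM at 10 °C, with full overlap.

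The changes of the 3 fat depots at 10 °C were compared with each other in 1 fit over their 18 libraries. No member passed an adjusted p of 0.05 for any of the 3 differences, and between 10 and 59 of 14482 genes did. At an unadjusted p of at most 0.05 with a fold above 1.5, 3 members differed in each of the 3 pairs of depots, where 9.34% of all genes did between iBAT and ingSAT, 13.8% between iBAT and pgVAT and 13.7% between ingSAT and pgVAT. The change of Hk1 in iBAT exceeded that in ingSAT by 2.09 on the log2 scale (SE 0.45, adjusted p = 0.0904), and that in pgVAT by 1.49 on the log2 scale (SE 0.45, adjusted p = 0.143). The change of Hk2 in iBAT exceeded that in pgVAT by 1.23 on the log2 scale (SE 0.33, adjusted p = 0.0997), and that in ingSAT exceeded pgVAT by 0.89 on the log2 scale (SE 0.33, adjusted p = 0.228), while iBAT and ingSAT differed by 0.34 on the log2 scale (SE 0.33, adjusted p = 0.732). The change of Pdk4 in ingSAT exceeded that in pgVAT by 2.37 on the log2 scale (SE 0.59, adjusted p = 0.126), and that of Ldhb by 1.05 on the log2 scale (SE 0.28, adjusted p = 0.129). For Pfkfb3 the changes were -1.34 in iBAT and -1.31 in pgVAT, the latter with the marker differences given above.

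In quadriceps at 10 °C 1 member was called, where 3.83% of 11841 genes were called. Pdk4 was at 557, 643 and 747 CPM at 22 °C and 515, 248 and 223 CPM at 10 °C. All cold libraries were below the controls, replicate 1 only by a small step (log2 fold change -0.98, SE 0.32, adjusted p = 0.425), and without 10 °C replicate 2 the log2 change was -0.81 and was not called. Against all 6 controls of this muscle the log2 change was -1.14. Slc2a4, whose protein is the insulin-dependent transporter of muscle, was at 773, 588 and 606 CPM at 22 °C and 571, 574 and 613 CPM at 10 °C, and Hk2 at 296, 352 and 402 CPM at 22 °C and 326, 298 and 344 CPM at 10 °C. Both overlapped. The first control had the highest Pkm and Ldha of the 6 libraries (6701 and 5063 CPM), and it also held the highest sum of skeletal muscle markers, 388786 CPM against 185879 to 294965 in the other libraries, with 0 of 12 of these genes called. Adipocyte markers summed to between 322 and 535 CPM at 22 °C and between 474 and 1315 CPM at 10 °C, with 6 of 8 higher, and brown adipocyte markers to between 508 and 711 CPM at 22 °C and between 538 and 765 CPM at 10 °C, with 4 of 8 higher. Of the pancreas acinar markers 7 of 7 tested were lower, from 2239 CPM in the first control, 11.4 and 0.0751 CPM in the others, to at most 0.769 CPM in the cold libraries. The part of these markers in the Pdk4 result was not tested. At 34 °C none of the 10 members was called in quadriceps (1.21% of 11752 genes; lowest unadjusted p of a member by edgeR 0.376), and none by the exact test or DESeq2. Pdk4 was there at 567, 560.0 and 1293 CPM at 22 °C and 913, 727 and 974 CPM at 34 °C.

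**Figure D4:**
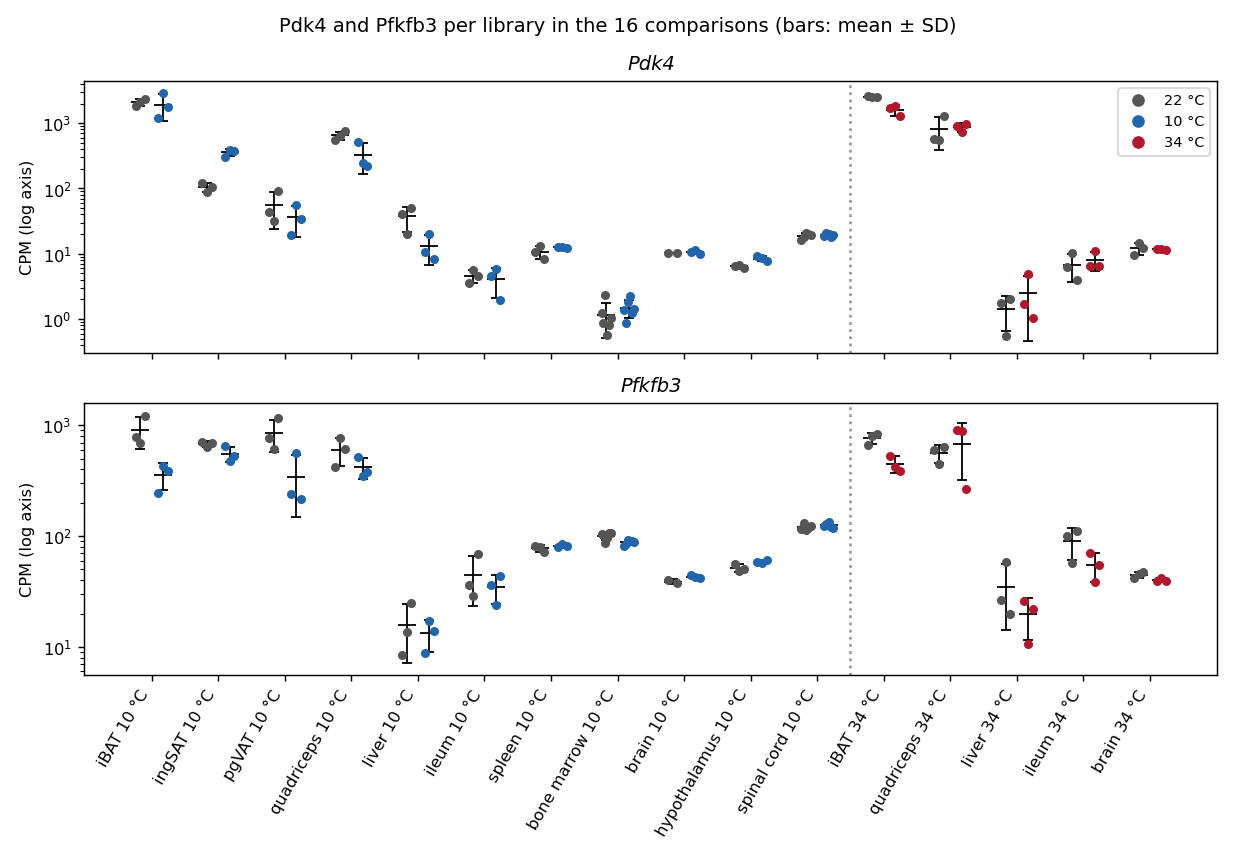
CPM of Pdk4 and Pfkfb3 per library in the 16 comparisons (logarithmic axes; dots are libraries, bars mean ± SD, grey for 22 °C, blue for 10 °C and red for 34 °C). Pdk4 at 10 °C lies above its controls in ingSAT and below them in quadriceps, and Pfkfb3 lies below its controls in iBAT at both temperatures and in pgVAT.

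In liver at 10 °C 2 members were called, both kinases of pyruvate dehydrogenase and both lower, where 3.28% of 12026 genes were called. Pdk4 was at 40.5, 20.2 and 50.9 CPM at 22 °C and 10.5, 20.2 and 8.28 CPM at 10 °C. The highest cold library and the lowest control differed by less than the rounding here (log2 fold change -1.53, SE 0.37, adjusted p = 0.119). Pdk2 was at 63.3, 44.4 and 41.6 CPM at 22 °C and 36.9, 24.3 and 31.8 CPM at 10 °C. Its groups did not overlap (log2 fold change -0.68, SE 0.18, adjusted p = 0.126), and the fold was under 1.5 without 10 °C replicate 2 (-0.54 on the log2 scale) and without 22 °C replicate 1 (-0.48). Slc2a1 was at 17.9, 12.8 and 15.3 CPM at 22 °C and 12.6, 11.9 and 10.4 CPM at 10 °C, without overlap and not called. The control of replicate 3 had 6.88 CPM of Slc2a4, where the other controls had 0.241 and 0.0602, and it also had the highest Hk2, Pfkfb3, Pkm, Ldhb and Pdk4. In that library the 8 adipocyte markers summed to 220.1 CPM and the 12 skeletal muscle markers to 218 CPM, where the other liver libraries had at most 67.0 and 40.7 CPM. Without that control the log2 change of Pdk4 was -1.24, and the part of these markers was not tested. Slc2a4 was not called (log2 fold change -2.44, SE 1.35, adjusted p = 0.356). Hepatocyte markers summed to between 94833 and 102145 CPM at 22 °C and between 118849 and 122851 CPM at 10 °C, with none called, and their part was not tested.
At 34 °C 1 of the 9 members tested was called in liver, where 3.38% of 11179 genes were called. It was Slc2a4, at 0.282, 0.272 and 0.245 CPM at 22 °C and 0.170, 3.61 and 2.17 CPM at 34 °C. The groups overlapped, since one warm library was under all controls, and all values were low (log2 fold change 2.89, SE 0.86, adjusted p = 0.245). Without 34 °C replicate 2 or 3 Slc2a4 did not pass the filter on low counts and could not be tested, and without 34 °C replicate 1 its log2 change was 3.42. The skeletal muscle markers summed to 18.99 CPM in the warm library with least Slc2a4 and to at most 1.99 in the other 5. Pdk2 was at 169, 176 and 159.6 CPM at 22 °C and 186, 198 and 210.0 CPM at 34 °C and Pdk4 at 1.76, 0.544 and 2.01 CPM at 22 °C and 1.67, 4.92 and 1.05 CPM at 34 °C, neither called.

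In ileum at 10 °C none of the 10 members was called by edgeR, where 2.71% of 14081 genes were called, and none by DESeq2, while 2 had an unadjusted p below 0.05, as 17.1% of all genes had. Pkm was at 199.7, 193 and 209.7 CPM at 22 °C and 303, 261 and 256 CPM at 10 °C. The groups did not overlap, with a change under the fold limit (log2 fold change 0.44, SE 0.0812, adjusted p = 0.0912). Ldha was at 522, 572 and 536 CPM at 22 °C and 709, 667 and 636 CPM at 10 °C, also apart (log2 fold change 0.30, SE 0.0754, adjusted p = 0.137). The enterocyte markers moved with them, between 11773 and 12784 CPM at 22 °C and between 18066 and 19149 CPM at 10 °C, with 3 of 8 higher; their part was not tested. At 34 °C 1 member was called, where 2.83% of 13023 genes were called. Hk2 was at 144, 109 and 161 CPM at 22 °C and 89.5, 43.6 and 76.1 CPM at 34 °C. Each warm library was below each control (log2 fold change -0.99, SE 0.27, adjusted p = 0.594). Pfkfb3 was at 101, 57.0 and 111 CPM at 22 °C and 70.8, 38.3 and 55.4 CPM at 34 °C, with overlap and not called (log2 fold change -0.71, SE 0.30, adjusted p = 0.594), but it was called lower by edgeR's exact test, DESeq2, library size alone and both other filters. Macrophage markers summed to between 143 and 267 CPM at 22 °C and between 118 and 176 CPM at 34 °C, with 2 of 4 lower, and their part was not tested. At 10 °C the log2 change of Hk2 in ileum was -0.24 with an interval of -0.66 to 0.17.

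In spleen, bone marrow, brain, hypothalamus and spinal cord at 10 °C and in brain at 34 °C, no member was called by edgeR, by its exact test or by DESeq2. At an unadjusted p below 0.05 by edgeR the members numbered 1 in spleen, 8 in bone marrow, 2 in hypothalamus and 1 in brain at 34 °C, with 0 in brain at 10 °C and 0 in spinal cord. Of all genes, 10% in spleen, 33% in bone marrow, 6.18% in hypothalamus, 2.64% in brain at 34 °C, 8.85% in brain at 10 °C and 5.79% in spinal cord were below it. The shares of all genes called, with the fold limit, were 2.68% of 14117 in spleen, 1.29% of 12525 in bone marrow, 0.801% of 13976 in brain, 0.578% of 14526 in hypothalamus, 0.271% of 14382 in spinal cord, and 0.193% of 13978 in brain at 34 °C.
Bone marrow, with 6 mice per group, had 5 members with an adjusted p below 0.05 and changes under the fold limit. Pkm ran from 514, 648 and 666 CPM at 22 °C to 467, 501 and 523 CPM at 10 °C (lowest, median and highest), a partial overlap (log2 fold change -0.32, SE 0.0630, adjusted p = 0.00555). Hk2 ran from 80.4, 101 and 114 CPM at 22 °C to 64.3, 79.0 and 86.6 CPM at 10 °C, also lower (log2 fold change -0.36, SE 0.0808, adjusted p = 0.00833), and Hk1 from 383, 396 and 449 CPM at 22 °C to 433, 459 and 479 CPM at 10 °C, higher (log2 fold change 0.18, SE 0.0448, adjusted p = 0.0131). Pfkfb3 and Ldhb had log2 changes of -0.19 and -0.27. Neutrophil precursor markers summed to between 18483 and 25987 CPM at 22 °C and between 17259.5 and 18051 CPM at 10 °C, and red cell precursor markers to between 8237 and 10481 CPM at 22 °C and between 10772 and 13740.4 CPM at 10 °C, with no gene of either list called; their part was not tested.
In hypothalamus Pdk4 was at 6.53, 6.74 and 6.05 CPM at 22 °C and 9.12, 8.50 and 7.72 CPM at 10 °C. It was higher in all 3 cold libraries with a change of 0.40 on the log2 scale and an adjusted p of 0.751 by edgeR. In brain at 10 °C the members' log2 changes ran from -0.09 to 0.25, and at 34 °C from -0.16 to 0.11. Slc2a1, the transporter of the blood-brain barrier, changed by -0.03 in brain at 10 °C with an interval of -0.24 to 0.18, and by -0.02 in spinal cord with an interval of -0.14 to 0.10. In spleen Slc2a1 was at 40.5, 34.5 and 32.6 CPM at 22 °C and 43.4, 44.1 and 40.6 CPM at 10 °C, without overlap by a narrow gap (log2 fold change 0.25, SE 0.10, adjusted p = 0.487), while neutrophil precursor markers summed to between 139 and 259.6 CPM at 22 °C and between 23.6 and 39.0 CPM at 10 °C, 6 of 6 lower, and their part was not tested.

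The isozymes of a step were also compared within a library, where the ratio of 2 counts needs no scaling between libraries. Over 4 ratios in 16 comparisons, 64 in all, none passed an adjusted p of 0.05. With 3 libraries against 3 the exact permutation test (two-sided) cannot give a p under 0.1, so the ratios are given as values. In iBAT the Ldha to Ldhb ratio of reads per kilobase was 2.17 at 10 °C (libraries 2.12 to 2.22) against 1.505 at 22 °C (libraries 1.16 to 1.78). It was 0.621 at 34 °C (libraries 0.516 to 0.881) against 1.19 at 22 °C (libraries 1.06 to 1.40). In ingSAT, where Ldhb was called and Ldha was not, the ratio was 5.56 at 10 °C (libraries 5.11 to 6.34) against 8.63 at 22 °C (libraries 7.76 to 9.73). It was thus higher in cold iBAT and lower in cold ingSAT than in the controls of each, a difference that was not tested.
In iBAT, where both genes rose at 10 °C, the Hk2 to Hk1 ratio was 16.9 at 10 °C (libraries 16.7 to 17.1) against 19.9 at 22 °C (libraries 17.7 to 23.8). In the 34 °C experiment it was 8.70 at 34 °C (libraries 7.25 to 10.1) against 13.1 at 22 °C (libraries 12.0 to 15.7). Neither pair of groups overlapped. In ingSAT it was 15.8 at 10 °C (libraries 13.4 to 21.4) against 5.46 at 22 °C (libraries 4.795 to 6.05). In bone marrow, with 6 libraries per group, it was 0.240 at 10 °C (libraries 0.192 to 0.275) against 0.350 at 22 °C (libraries 0.280 to 0.425) (exact permutation p = 0.00216, the smallest this design can give; adjusted p = 0.139). The Pdk4 to Pdk2 ratio in ingSAT was 7.48 at 10 °C (libraries 5.79 to 9.48) against 2.43 at 22 °C (libraries 1.73 to 3.18), and the Slc2a4 to Slc2a1 ratio in iBAT was 129.6 at 10 °C (libraries 117 to 158) against 84.4 at 22 °C (libraries 72.2 to 95.05).

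**Figure D5:**
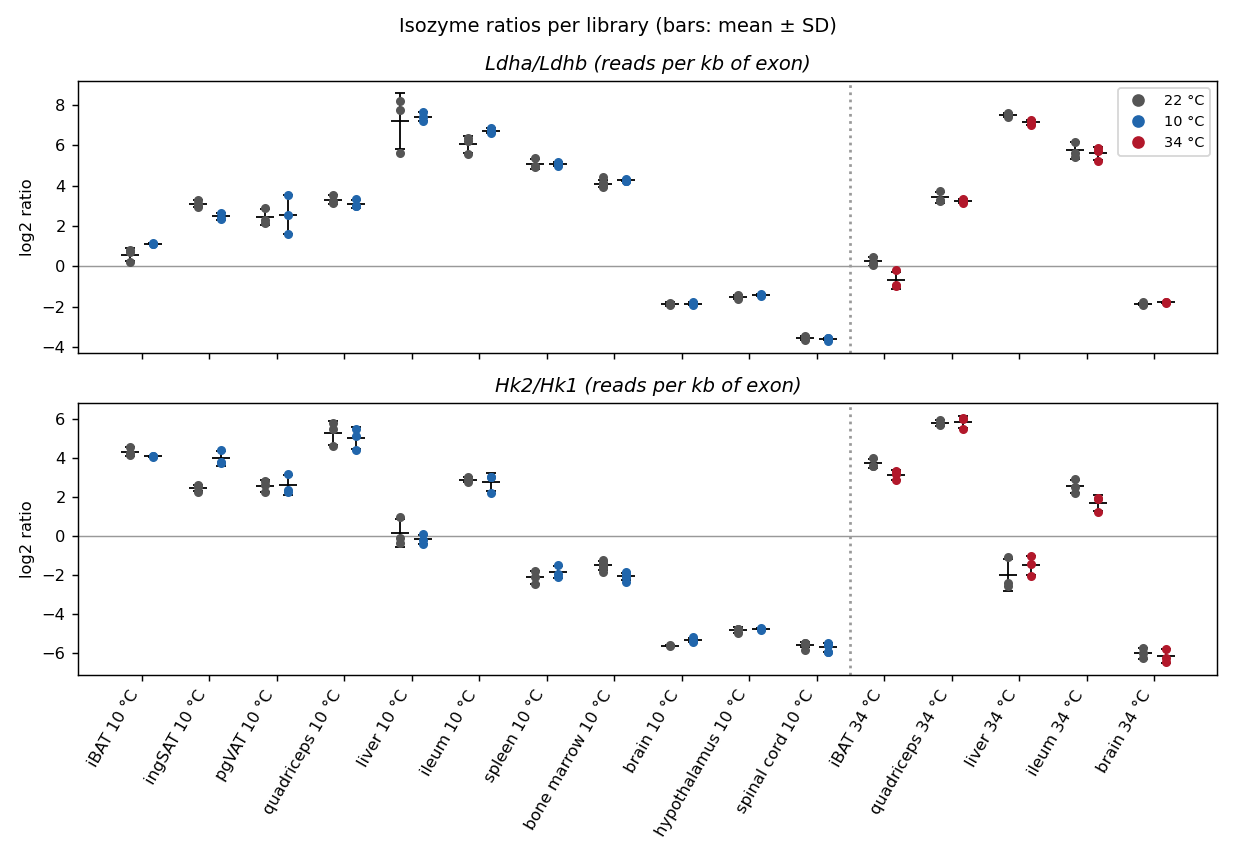
Log2 ratio of Ldha to Ldhb and of Hk2 to Hk1 reads per kilobase of exon in each library of the 16 comparisons (dots are libraries, bars mean ± SD; 0 marks equal reads per kilobase). Liver, ileum and spleen lie above 4 for Ldha over Ldhb and brain, hypothalamus and spinal cord below 0.

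Of 48 other genes of the pathway, in 5 lists, 44 were tested in iBAT at 10 °C, and 17 were higher and 5 lower, where 6% of all genes were higher and 7.24% lower. Of the other glycolytic enzymes 8 of 18 were higher and 4 lower. Pfkl, a phosphofructokinase subunit, rose from 678 CPM at 22 °C to 2109 CPM at 10 °C (medians; log2 fold change 1.78, SE 0.22, adjusted p = 0.00217). Slc2a5, the fructose transporter, rose from 28.5 CPM at 22 °C to 81.9 CPM at 10 °C (medians; log2 fold change 1.96, SE 0.51, adjusted p = 0.0399). Slc16a7, a monocarboxylate transporter, fell from 46.5 CPM at 22 °C to 12.4 CPM at 10 °C (medians; log2 fold change -1.96, SE 0.26, adjusted p = 0.00251).
In ingSAT 45 were tested, and 19 were higher and 5 lower, where 7.2% of all genes were higher and 9.14% lower. The pyruvate dehydrogenase list had 6 of 10 higher and none lower, with a median log2 change of 1.05 beside -0.01 for all genes. Mpc2, a subunit of the mitochondrial pyruvate carrier, rose from 179 CPM at 22 °C to 619 CPM at 10 °C (medians; log2 fold change 1.77, SE 0.14, adjusted p = 0.00281), and Mpc1, the other subunit, from 24.5 CPM at 22 °C to 80.7 CPM at 10 °C (medians; log2 fold change 1.70, SE 0.12, adjusted p = 0.00227). Pdhb, a subunit of the first enzyme of the complex, rose from 164 CPM at 22 °C to 446 CPM at 10 °C (medians; log2 fold change 1.69, SE 0.22, adjusted p = 0.0102), and Dld, the third enzyme, from 182 CPM at 22 °C to 514 CPM at 10 °C (medians; log2 fold change 1.47, SE 0.13, adjusted p = 0.00417).
In iBAT at 34 °C 40 were tested, and 3 were higher and 15 lower, where 12.2% of all genes were higher and 7.19% lower, with 7 of 10 lower in the pyruvate dehydrogenase list at a median of -0.71 beside 0.02 for all genes. Mpc1 fell from 646 CPM at 22 °C to 285 CPM at 34 °C (medians; log2 fold change -1.30, SE 0.21, adjusted p = 0.00573), Mpc2 from 550.5 CPM at 22 °C to 257 CPM at 34 °C (medians; log2 fold change -1.25, SE 0.13, adjusted p = 0.00176) and Pdhb from 1526 CPM at 22 °C to 676 CPM at 34 °C (medians; log2 fold change -1.07, SE 0.16, adjusted p = 0.00507), while Aldoc, the brain aldolase, rose from 2.63 CPM at 22 °C to 6.69 CPM at 34 °C (medians; log2 fold change 1.41, SE 0.25, adjusted p = 0.00728).
Elsewhere between 0 and 4 of the tested genes were called per comparison. Of all genes, between 0.193% (brain at 34 °C) and 7.94% (pgVAT at 10 °C) were called in those comparisons. The counts were not set against these shares. Those named by rule were Bpgm in liver at 34 °C, which fell from 14.6 CPM at 22 °C to 9.35 CPM at 34 °C (medians; log2 fold change -0.65, SE 0.10, adjusted p = 0.0451), and in bone marrow Slc16a3, the lactate exporter, which fell from 132 CPM at 22 °C to 78.2 CPM at 10 °C (medians; log2 fold change -0.59, SE 0.13, adjusted p = 0.00932), and Gapdh, which fell from 3.28 CPM at 22 °C to 1.80 CPM at 10 °C (medians; log2 fold change -0.62, SE 0.17, adjusted p = 0.0203). Gapdh is uncertain: it has many near-identical copies in the genome, and its values lay between 1.59 and 47.1 CPM in the 8-tissue, bone marrow and spinal cord tables and between 829.4 and 12354 CPM in the table with quadriceps and the 34 °C experiment.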

How the data were processed

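RNA-seq libraries from 11 tissues were sequenced by the study, and the authors deposited raw read counts per gene on mm10 in 4 tables. The submitters' processing notes name STAR 2.5.3a, HTSeq 0.6p1 and Picard 1.141. Of the 21647 Ensembl identifiers in the largest table, 21583 were given a symbol, and no column was left without a sample (0 of them).

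From these counts, each comparison kept the genes whose log2 CPM averaged over 0, with TMM scaling and the edgeR 4.0.16 quasi-likelihood F-test (R 4.3.3). Calls required a fold change over 1.5 together with an unadjusted p not above 0.05, and Benjamini-Hochberg values over all genes tested are given beside it. Brain 22 °C replicate 2 was left out, so that 105 of 106 libraries were used. Quadriceps at 10 °C and at 34 °C each had the 22 °C columns of their own name series. Isozyme ratios used counts per kilobase with nothing added to the counts, and two-sided exact permutation tests (Python 3.11.15, SciPy 1.17.1). Scripts were tested on simulated counts.

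The members and gene lists were chosen with earlier results of these data known. Named genes were the 10 members, at most 4 other pathway genes per comparison (called, adjusted p below 0.05, largest change), and 1 gene of most similar pattern per member. One gene that met this rule is not reported here. Same-numbered libraries were not treated as pairs, since in no tissue did all pairs deviate together. Alternatives were edgeR's exact test, DESeq2 1.42.0, an adjusted p threshold, scaling by library size alone, 2 other filters, the replicate number as a block, other controls, and leaving out each library. A pgVAT comparison with 1 cold library was chosen after seeing the data. Depth was 4262403 to 62880248 counts per library, and p-values measure the spread between libraries, most of which pool mice.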

Additional observations from a re-analysis of the deposited data

Results flagged for a closer look

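Some libraries stood apart from their own group, by the gap to the nearest library as a share of the range. This was so in 6 of 40 sets checked, each of 1 member in 1 group of 5 or 6 libraries. The limit is one that chance passes in about 1 in 20 single sets. The members share libraries, so the sets are not independent and their number cannot be set against that rate. In spinal cord at 10 °C replicate 4 was the highest for Hk1 (459 CPM, next 365), Pkm (1607, next 1041) and Ldhb (483, next 433), and the lowest for Pdk2 (124, next 147). In bone marrow Ldhb was lowest in 10 °C replicate 2 (6.85 CPM, next 7.26) and in 22 °C replicate 4 (6.49, next 8.76).

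The changes at 10 °C differed between fat depots at an unadjusted p of at most 0.05, with none past an adjusted p of 0.05 by edgeR. Between iBAT and ingSAT the differences of log2 changes were 2.09 for Hk1 (adjusted p = 0.0904), -0.79 for Ldhb (0.293) and -1.85 for Pdk4 (0.251). Between iBAT and pgVAT they were 1.49 for Hk1 (0.143), 1.23 for Hk2 (0.0997) and 0.85 for Pkm (0.315), and between ingSAT and pgVAT 0.89 for Hk2 (0.228), 1.05 for Ldhb (0.129) and 2.37 for Pdk4 (0.126).

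The brain library at 22 °C that was left out (replicate 2) had 423 CPM of Ldha, where the other brain controls had at most 204, and 23.4 CPM of Pdk4, where they had at most 10.3.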

How the results depend on the processing

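No called log2 fold change and no depot difference reversed under any alternative run. With an adjusted p below 0.05 as the threshold, members called numbered 2 in ingSAT and 0 in pgVAT, quadriceps at 10 °C, liver at both temperatures and ileum at 34 °C. With library size alone 1 was called in iBAT at 34 °C. In ileum at 34 °C 2 were called with library size alone, edgeR's exact test, DESeq2 and both other filters, the second being Pfkfb3. With the replicate number as a block 0 were called in pgVAT, and no other count moved by more than 1.5 times; correlations of same-numbered libraries ran from -0.693 to 0.478. With all brain controls the Pdk4 to Pdk2 log2 ratio change was -0.31. Leaving out 1 library gave 0 to 1 members in pgVAT, 0 to 2 in quadriceps at 10 °C (0 without 10 °C replicate 2, 2 without replicate 1 of either temperature), 1 to 3 in liver at 10 °C (1 without 10 °C replicate 2), 0 to 1 in spleen (1 without 10 °C replicate 3), 0 to 1 in quadriceps at 34 °C (1 without 34 °C or 22 °C replicate 3), 0 to 2 in liver at 34 °C (0 without 34 °C replicate 2 or 3, 2 without 34 °C replicate 1 or 22 °C replicate 3) and 1 to 2 in ileum at 34 °C (2 without 34 °C replicate 1 or 22 °C replicate 2), and 3 to 6 for the difference between ingSAT and pgVAT (6 without pgVAT 10 °C replicate 2, 5 without 22 °C replicate 2). In an alternative chosen after seeing the data, with 10 °C replicate 2 as the only cold pgVAT library, Pfkfb3 had a log2 change of -0.57, which 1 library cannot test. With library size alone 13 of 160 levels at 22 °C moved by more than 1 SD. Causes were not tested. Low counts limited Slc2a4 in liver.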
